A study of Mus musculus with 15 samples.

Results

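Interferon-induced genes are switched on in a cell that senses interferon, and their RNA is often used as a sign of interferon signalling. Interferon protein and signalling itself were not measured here. The list examined here names 39 mouse genes: 19 antiviral genes that answer mainly to type I interferon, 7 GTPases that answer mainly to interferon gamma, and 13 others. A gene was kept where the array holds a probe set annotated to that gene alone, and the brightest such probe set stands for it. This left 31 of the 39 genes, out of 8251 genes represented on the array: 15 antiviral genes, 6 GTPases and 10 others. Stat2, Oasl2, Bst2, Ly6a and Zbp1 had no probe set listed, and Ifi203, Tgtp1 and Psme2 had only probe sets shared by several genes, so these 8 are not analysed here.

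Type I interferons (interferon beta and the interferon alphas) bind the receptor made of Ifnar1 and Ifnar2. The kinases Jak1 and Tyk2 then set off a complex that holds Irf9 and binds the interferon-stimulated response element in target promoters. Interferon gamma acts through Ifngr1 and Ifngr2 and the kinases Jak1 and Jak2, and its target promoters often hold the gamma-activated site. Macrophages keep a low interferon tone through small amounts of interferon beta. RANKL is the cytokine that drives macrophage precursors to become osteoclasts, the multinucleated cells that resorb bone. Interferon beta and interferon gamma are both known brakes on that process.

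The cells were RAW 264.7, an established mouse macrophage-like line, grown in alpha MEM with serum and then given serum-free alpha MEM with RANKL, or without it, on days 0 and 3. RNA was taken on days 1 to 5 and hybridised to 15 Affymetrix arrays, 1 sample on each. Control cells (no RANKL) have 1 array at day 1, 2 each at days 2, 3 and 4, and 1 at day 5. RANKL cells have 1 array at day 1 and 2 each at days 2, 4 and 5, and day 3 with RANKL is not analysed here. The labels call the control cells and the RANKL cells of days 1 and 2 mononuclear, and the RANKL cells of days 4 and 5 multi-nuclear. The labels give no dose of RANKL. They do not state that replicates were separate cultures, so the spread behind the p-values may be technical. All groups come from 1 cell line, so they say nothing of spread between animals.

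Values are MAS5 signals in linear intensity units, scaled by the authors so that the 2% trimmed mean is 500 on every array. The median signal was 102 to 148, and the ratio of the beta-actin 3' to 5' probe sets, a sign of RNA integrity, was 1.01 to 1.39. The 9 macrophage markers measured summed to 52665 to 67228 on control arrays and 35111 to 64336 on RANKL arrays. Of these 9, 3 fell with RANKL over the 4 days and 3 at day 2, and their median difference was -0.31 over the 4 days, -0.51 at day 2 and -1.14 at day 5. The 5 osteoclast markers measured summed to 1043 to 2836 on the control arrays of days 2, 4 and 5 and to 12170 to 31157 on the RANKL arrays of those days. Over all arrays, days 1 and 3 included, the sums were 1043 to 6163 without RANKL and 5573 to 31157 with it, so they overlapped. Of markers of other cells, the 6 of T cells summed to 253 to 392 without RANKL and 211 to 437 with it. In each arm 5 of these 6 stayed under 100 on every array. The 5 neutrophil markers summed to 243 to 375 and 303 to 402, with 3 of 5 under 100 throughout each arm. The 4 B cell markers (341 to 531 and 347 to 566) had 1 under 100 in the same way. The 5 stromal and osteoblast markers (949 to 1652 and 1064 to 1536) had 2, so not all of these lists were low. Both plasmacytoid dendritic cell markers measured reached 100 on some array and summed to 234 to 602 and 101 to 446, with a median difference of -0.96 at day 2, where neither passed. In bulk RNA, fewer cells expressing a gene and less RNA per cell cannot be told apart, and the part that the osteoclast and macrophage marker changes have in the results was not tested.

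The response element is shown first because it is the sequence through which type I interferon is known to act on target promoters. Promoter windows came from RefSeq (GRCm38.p6), 250 bases before to 50 after the start, and 30 of the 39 genes matched. The core of the interferon-stimulated response element (GAAA, then any 2 bases, then GAAA), searched on both strands, was in 18 of 30 (60%), against 1079 of 27025 genes (3.99%) in the whole table. By group it was in 8 of 14 antiviral genes (57.1%), 5 of 6 GTPases (83.3%) and 5 of 10 others (50%). The core of the gamma-activated site, TTCNNNGAA, also searched on both strands, was in 9 of 30 (30%), against 2582 of 27025 (9.55%). It was in 7 of 14 antiviral genes, 2 of 6 GTPases and 0 of 10 others. The 6 stretches printed here, 5′ to 3′ on the gene's own strand with each core in capitals, are those of genes that passed in 1 of the 8 planned comparisons and have the core before the start. A core on the opposite strand reads TTTC, any 2 bases, TTTC, and cores can overlap each other, as in Isg15 and Irgm1.
Isg15 (chr4:156200845-156200926, minus strand): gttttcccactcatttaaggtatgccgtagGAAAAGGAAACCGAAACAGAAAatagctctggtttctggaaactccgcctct
Ifit1 (chr19:34640755-34640843, plus strand): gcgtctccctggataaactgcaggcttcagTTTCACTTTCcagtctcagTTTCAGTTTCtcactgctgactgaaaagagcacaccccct
Ifit3 (chr19:34583343-34583446, plus strand): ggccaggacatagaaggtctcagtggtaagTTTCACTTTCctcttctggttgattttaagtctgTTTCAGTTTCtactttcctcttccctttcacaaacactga
Igtp (chr11:58199492-58199555, plus strand): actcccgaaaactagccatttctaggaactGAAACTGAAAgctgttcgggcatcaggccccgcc
Irgm1 (chr11:48871421-48871480, minus strand): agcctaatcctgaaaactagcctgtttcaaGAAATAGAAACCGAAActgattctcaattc
Gbp2 (chr3:142620574-142620643, plus strand): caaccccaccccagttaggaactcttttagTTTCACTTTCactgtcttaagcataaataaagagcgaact

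Isg15 carries 3 overlapping cores from 78 to 57 bases before its start. Ifit1 and Ifit3 each carry 2 separate cores with the same letters, TTTCACTTTC and TTTCAGTTTC, from 104 to 76 and from 156 to 113 bases before their starts. The GTPase cores lie closer, 34 to 25 bases before the start in Igtp, 30 to 15 in Irgm1 and 59 to 50 in Gbp2. A match is a description of letters and shows no binding. Among the 24 represented genes with a window, 3 of the 7 that fell with RANKL over the 4 days and 11 of the other 17 held the response element core.

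Differences below are RANKL minus control of the same day on the log2(signal + 32) scale, fitted with limma over all 12422 probe sets and 15 arrays. Adding 32 understates changes of dim genes. A gene is said to rise or fall only where the Benjamini-Hochberg adjusted p over all probe sets is under 0.05. Averaged over days 1, 2, 4 and 5, 8 of the 31 genes fell and 0 rose, against 0.539% of all probe sets that fell and 0.555% that rose. Of the antiviral genes 6 of 15 fell (Usp18, Isg20, Isg15, Ifit1, Ifih1 and Ifit2), of the GTPases 1 of 6 (Ifi47) and of the others 1 of 10 (Sp100). The difference was negative for 29 of the 31, with Mx1 (0.02) and Ifi27 (0.23) as the exceptions. The median was -0.73 over the antiviral genes, -0.50 over the GTPases and -0.32 over the others, beside 0.01 over all probe sets. Leaving out the only control array of day 5, which also removes that day from the average, left 0 of the 8 calls by limma. In that fit 16 of the 31 genes were at an unadjusted p under 0.05. Over all 12422 probe sets it gave 2 falls and 9 rises, against 67 and 69 with every array. The count among the 31 genes was 5 without either array of control day 2, either array of RANKL day 2 or control day 4 replicate 1. It was 3 with the beta-actin ratio as a covariate. That ratio was 1.01 to 1.25 on the control arrays of days 2, 4 and 5 and 1.02 to 1.39 on the RANKL arrays of those days.

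**Figure D1:**
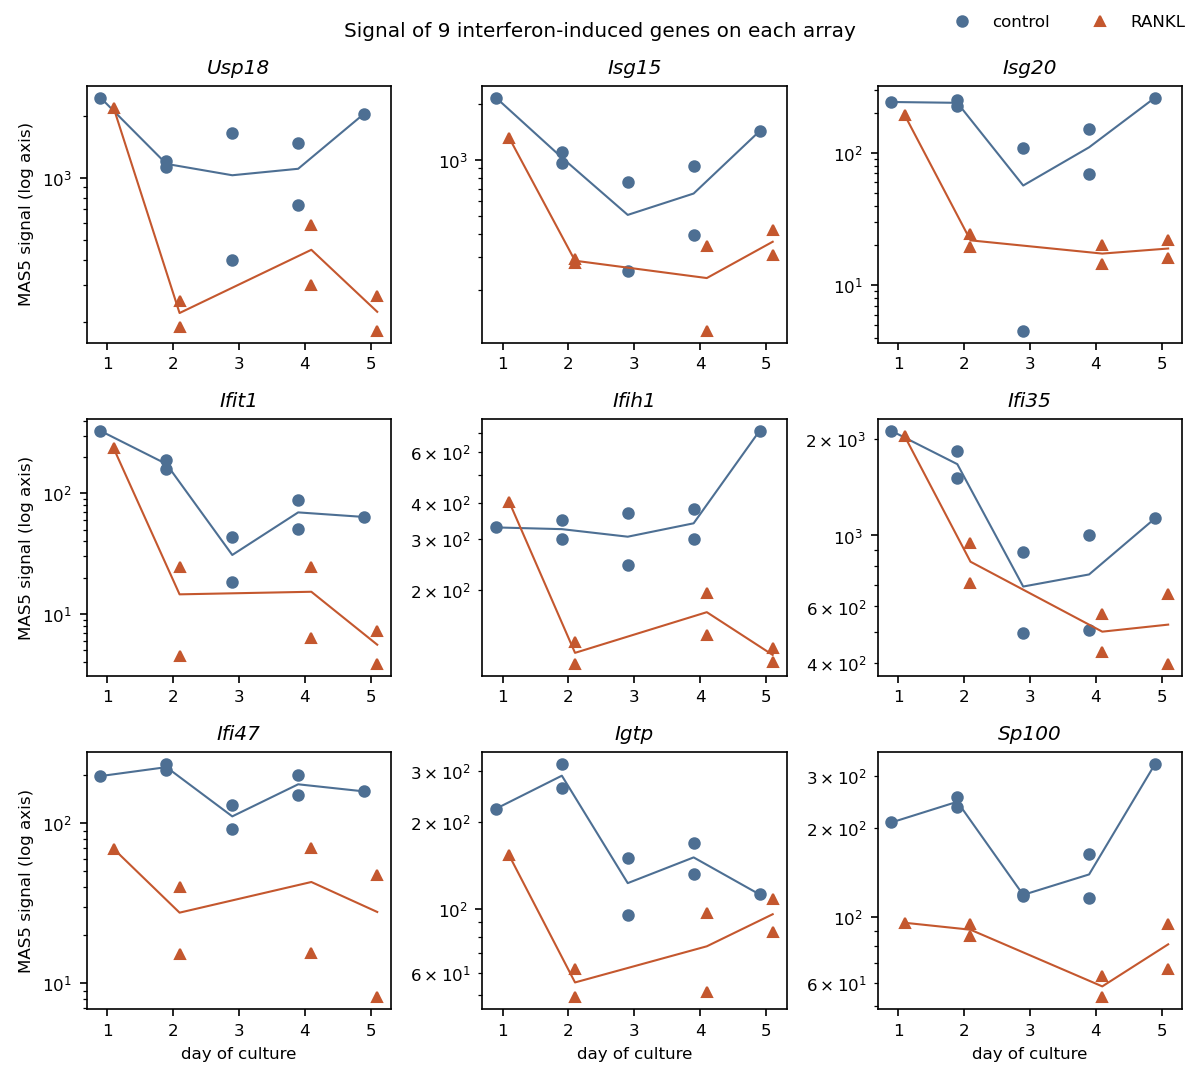
MAS5 signal (log axis) of 9 genes against day of culture, with a point for each array (circles for control, triangles for RANKL) and lines through the daily means; RANKL has no array at day 3. Usp18 ran from 733 to 2040 on the control arrays of days 2, 4 and 5 and from 180 to 590 on the RANKL arrays of those days, while the day 1 arrays read 2442 and 2175.

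Usp18 encodes the protease that removes ISG15 from proteins and also dampens signalling at the type I receptor. Its signals on control arrays were 2442 at day 1, 1199 and 1131 at day 2, 1652 and 400 at day 3, 1473 and 733 at day 4 and 2040 at day 5. On RANKL arrays they were 2175 at day 1, 189 and 251 at day 2, 590 and 302 at day 4 and 266 and 180 at day 5. The day 1 arrays were close, and from day 2 every RANKL array lay below every control array of the same days. Over the 4 days Usp18 was lower by 3.19-fold (-1.68 ± 0.31 (SE), limma adjusted p = 0.0262), with -0.16 ± 0.75 on day 1, -2.26 ± 0.53 on day 2, then -1.23 ± 0.53 on day 4 and finally -3.04 ± 0.65 on day 5. None of the single days passed for it (adjusted p = 0.0943 at day 2 and 0.0573 at day 5).

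Isg15 is a ubiquitin-like protein, induced by interferon, that is attached to many other proteins. Its control signals were 2155, then 1096 and 961, then 761 and 253, then 922 and 398, and 1425 at day 5. With RANKL they were 1314 at day 1, 281 and 295 at day 2, 344 and 121 at day 4, and 309 and 419 at day 5. Control day 4 replicate 2, at 398, lay under the higher RANKL array of day 5, so the groups overlapped slightly. The difference was -1.43 ± 0.30 (adjusted p = 0.0468), and it missed the threshold in 12 of 24 alternative analyses.

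Isg20 is an exonuclease that degrades viral RNA. Controls read 243 at day 1, 227 and 252 at day 2, 109 and 4.51 at day 3, 152 and 68.8 at day 4, and reached 262 at day 5. RANKL arrays read 194 at day 1 and then stayed between 14.4 and 24.4 on all 6 arrays. The gene was thus dim in RANKL cells from day 2 on, and lower than every control array but 1, control day 3 replicate 2. The difference was -1.65 ± 0.30 (adjusted p = 0.0226).

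The Ifit genes encode proteins that bind viral RNA ends and block translation. Ifit1 read 329 at control day 1, 190 and 160 at day 2, 43.4 and 18.3 at day 3, 88.4 and 50.6 at day 4 and 63.7 at day 5. With RANKL it read 236 at day 1, 4.51 and 24.6 at day 2, 24.3 and 6.28 at day 4 and 3.84 and 7.3 at day 5. Its difference was -1.27 ± 0.20 (adjusted p = 0.00971), and it fell at day 2 taken alone (-2.18 ± 0.34, adjusted p = 0.0183). Ifit3, whose printed cores have the same letters as those of Ifit1, read 151 at control day 1, 82.6 and 96.1 at day 2, and 11.1 to 50.4 on the later control arrays, against 73.8 at RANKL day 1 and 8.31 to 43.3 afterwards. The Ifit3 groups overlapped, and its difference of -0.73 ± 0.17 did not pass (adjusted p = 0.0702). Ifit2 was dim, at 32.2 at control day 1, 63.6 and 62.8 at day 2, 63.6 and 47.2 at day 3, 21 and 23.7 at day 4 and 104 at day 5. It read 42.8 at RANKL day 1 and 2.82 to 15.6 on the other RANKL arrays, all under the lowest control array. Ifit2 fell over the 4 days (-0.82 ± 0.12, adjusted p = 0.00823), at day 2 (-1.30 ± 0.21, adjusted p = 0.0233) and at day 5 (-1.84 ± 0.26, adjusted p = 0.00725).

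Ifih1 encodes MDA5, the cytosolic sensor of long double-stranded RNA. Controls were steady at first, with 330, then 349 and 302, then 369 and 244, then 301 and 381, and reached 712 at day 5. RANKL day 1 read 405, above control day 1, and the later RANKL arrays read 132 and 111, 196 and 140, and 126 and 113. All 6 of those lay below all 8 control arrays. Ifih1 fell over the 4 days (-1.04 ± 0.15, adjusted p = 0.00707) and at day 5 (-2.29 ± 0.32, adjusted p = 0.00725), and the day 5 call was kept in all 23 alternatives that could test it. All of these keep the only control array of day 5, at 712, so they cannot show how far the call rests on it.

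Ifi35, which binds the interferon-induced protein Nmi, was bright and read highest at day 1 in both arms. It read 2123, 1833 and 1509, 890 and 495, 1005 and 506, and 1131 in control cells. It read 2045 at RANKL day 1, 712 and 944 at day 2, 570 and 431 at day 4 and 396 and 657 at day 5. The day 1 arrays were alike and the arms overlapped at day 4, and the difference of -0.66 ± 0.21 did not pass (adjusted p = 0.198). The remaining antiviral genes did not pass either. Adar, the RNA editing enzyme, was at -0.70 ± 0.17 (adjusted p = 0.0883), Rsad2 (viperin) at -0.83 ± 0.28 (adjusted p = 0.24) and Mx2 at -0.29. Eif2ak2 (the kinase PKR, -0.05), Samhd1 (a nucleotide hydrolase, -0.03), Mx1 (0.02) and Ifi27 (0.23 ± 0.14) lay near 0. Mx1 was under 100 on every array, as were the GTPases Gbp2 and Iigp1, so little can be read from these 3. Other genes were dim on most arrays. Ifit2 and Ifit3 were under 100 on 14 of the 15 arrays, Mx2, Eif2ak2 and Gbp3 on 13, Rsad2 on 12 and Ifit1 and Nmi on 11.

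The interferon gamma GTPases guard the cell against bacteria and parasites that live in vacuoles. Ifi47 read 197 at control day 1, 214 and 234 at day 2, 129 and 91.6 at day 3, 201 and 149 at day 4 and 158 at day 5. With RANKL it read 69.1 at day 1, 15.3 and 39.9 at day 2, 70.3 and 15.5 at day 4 and 47.6 and 8.15 at day 5. Every RANKL array, day 1 included, lay below every control array. Ifi47 fell over the 4 days (-1.66 ± 0.25, adjusted p = 0.00844) and at day 2 (-2.13 ± 0.43, adjusted p = 0.0486), and the day 2 call was lost in 13 of 23 alternatives.

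Igtp (Irgm3) read 222, 317 and 261, 150 and 95.1, 169 and 132, and 112 on the control arrays of days 1 to 5. It read 153 at RANKL day 1, 61.7 and 49.2 at day 2, 96.6 and 51.4 at day 4, and 83.2 and 108 at day 5. The gap was wider at day 2 than at day 5, where the only control array, at 112, still lay above both RANKL arrays. The control signal itself was lower at day 5 than at day 2. The change in the gap between these 2 days was not tested. Igtp fell at day 2 (-1.87 ± 0.31, adjusted p = 0.0257), was at -0.17 ± 0.39 at day 5, and did not pass over the 4 days (-0.83 ± 0.18, adjusted p = 0.0619).

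Irgm1, a regulator of the other immunity-related GTPases, read 718 at control day 1, 420 and 298 at day 2, 274 and 89.8 at day 3, 321 and 168 at day 4 and 142 at day 5. With RANKL it read 320, 116 and 161, 81.1 and 111, and 128 and 168. The arms met at day 5 (0.04 ± 0.52) after -1.09 ± 0.60, -1.19 and -1.06 at days 1, 2 and 4, and the 4-day difference of -0.83 ± 0.25 did not pass (adjusted p = 0.169). Gbp3 (-0.18), Gbp2 (-0.17) and Iigp1 (-0.09) lay near 0. Gbp2 read 39.4 at control day 1 and 3.74 to 10.9 on all other arrays but for 12 on 1 array of control day 3.

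Among the other interferon-induced genes, Sp100, a protein of PML nuclear bodies, read 209 at control day 1, 255 and 236 at day 2, 118 and 120 at day 3, 163 and 116 at day 4 and 329 at day 5. With RANKL it read 95.8, then 86.3 and 95.2, 53.6 and 63.2, and 66.9 and 95.1. No RANKL array reached the lowest control array. Sp100 fell over the 4 days (-1.17 ± 0.16, adjusted p = 0.00515) and at day 5 (-1.69 ± 0.33, adjusted p = 0.0386), the latter lost in 13 of 23 alternatives. The other Sp100 probe set, at 26.8 to 168, was at -0.84 over the 4 days and did not pass (limma adjusted p = 0.108). Pml itself, the scaffold of the same bodies, was at -0.21.

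Trim30a, a ubiquitin ligase that restrains Toll-like receptor signalling, read 138, 112 and 200, 136 and 140, 111 and 95.6, and 207 in control cells, and 91, 64.9 and 61.3, 125 and 85.2, and 64.4 and 12 with RANKL. Ifi204, a DNA-binding protein of the p200 family, read 710, 522 and 436, 839 and 523, 817 and 500, and 1375 in control cells. It read 472, 288 and 244, 668 and 539, and 714 and 410 with RANKL. The arms overlapped for both, at -0.82 ± 0.22 (adjusted p = 0.132) for Trim30a and -0.68 ± 0.18 (adjusted p = 0.121) for Ifi204. The name of the Ifi204 probe set carries the manufacturer's mark for probes shared within a gene family, as do those of Ly6e and Iigp1, and another Ifi204 probe set was at 0.12. Trim25, the ligase that activates the RNA sensor RIG-I, did not differ past the threshold (-0.15). Psme1 (-0.38), Trim21 (-0.36), Ly6e (-0.29), Nmi (-0.29) and Socs1 (-0.15) did not pass.

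**Figure D2:**
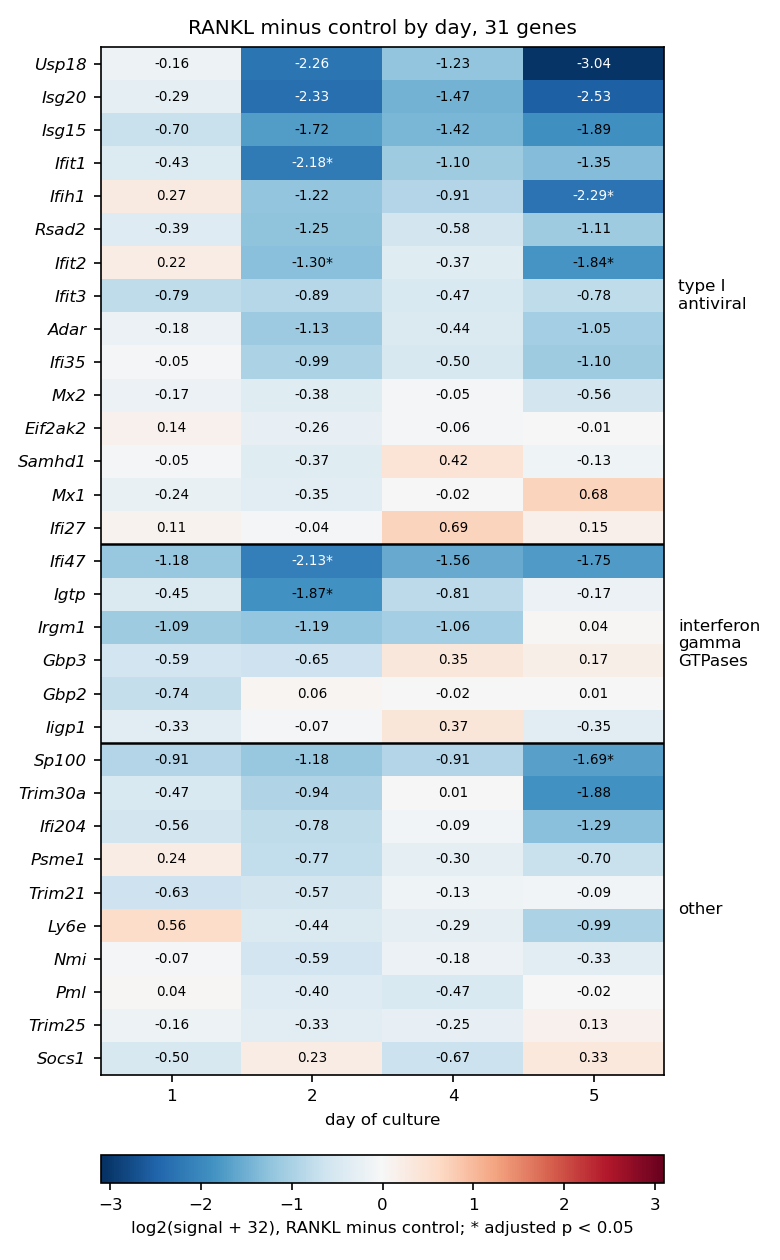
RANKL minus control on the log2(signal + 32) scale for the 31 genes (rows, in 3 groups, ordered within each by the 4-day mean) at days 1, 2, 4 and 5 (columns); blue is lower with RANKL and an asterisk marks an adjusted p under 0.05. Usp18 ran from -0.16 at day 1 to -3.04 at day 5, and Igtp was at -1.87 at day 2 and -0.17 at day 5.

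By day, the RANKL difference of the antiviral genes was small at day 1 and large at days 2 and 5, while the GTPase median was large at day 2 and near 0 at day 5. Ifi47 is an exception among the GTPases, at -1.75 ± 0.53 at day 5 (adjusted p = 0.156), and 2 of the 6 GTPases (Gbp2 and Iigp1) were under 100 on every array. The groups were not tested against each other. At day 1, with 1 array in each arm, 0 of 31 genes passed (0% of all probe sets in either direction; limma, 2 genes at an unadjusted p under 0.05), and the medians were -0.17 for antiviral genes and -0.67 for GTPases. At day 2, 4 genes fell (Ifit1, Igtp, Ifit2 and Ifi47) and 0 rose, against 0.539% and 0.314% of probe sets, and the medians were -1.13 and -0.92. Leaving out any 1 of the 4 day 2 arrays left 0 calls by limma at that day, with 13 to 15 genes still at an unadjusted p under 0.05. At day 4, 0 passed (0.0483% and 0.217% of probe sets fell and rose; limma, 11 genes at an unadjusted p under 0.05), and the medians were -0.47 and -0.42. At day 5, 3 genes fell (Ifih1, Ifit2 and Sp100) against 0.403% and 0 rose against 0.515%, and the medians parted, -1.10 for antiviral genes and -0.08 for GTPases. Leaving out RANKL day 5 replicate 1 made that count 5, leaving out replicate 2 made it 1, and every day 5 value rests on 1 control array.

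The late minus early difference (RANKL effect of days 4 and 5 minus that of days 1 and 2) passed for 0 genes in either direction (0% and 0.0403% of probe sets; limma, 4 genes at an unadjusted p under 0.05). Its median was 0.48 over the GTPases, none of them below 0, and -0.03 over the antiviral genes. Gbp3, under 100 on 13 of the 15 arrays, was at 0.88 ± 0.34, Igtp at 0.67 ± 0.37 and Ifih1 at -1.13 ± 0.31 (adjusted p = 0.404). The RANKL effect of days 2, 4 and 5 minus that of day 1, a comparison added after the values were seen, also passed for 0 genes (0.0161% and 0.0322% of probe sets fell and rose; limma, 5 genes at an unadjusted p under 0.05), with Usp18 at -2.01 ± 0.82 (adjusted p = 0.441).

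Setting the 6 RANKL arrays of days 2, 4 and 5 against the 5 control arrays of the same days, 8 of 31 genes did not overlap and lay lower (25.8%, against 0.564% of all probe sets): Isg20, Usp18, Ifit1, Ifit2, Ifih1, Ifi47, Igtp and Sp100. None of the 31 lay wholly higher (0.789% of all probe sets). Against all 8 control arrays, 4 still lay lower (Ifi47, Ifit2, Ifih1 and Sp100, 12.9% against 0.201%) and 0 higher (0.378% of all probe sets). At day 2 alone 23 genes lay lower (74.2% against 19.2%) and 0 higher (18.8%). At day 4, 14 lay lower (45.2% against 19.8%) and 3 higher (17.5% of all probe sets), namely Gbp3, Samhd1 and Ifi27. At day 5, 20 lay lower (64.5% against 26.9%) and 4 higher (49.2% of all probe sets), namely Gbp3, Mx1, Trim25 and Socs1.

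**Figure D3:**
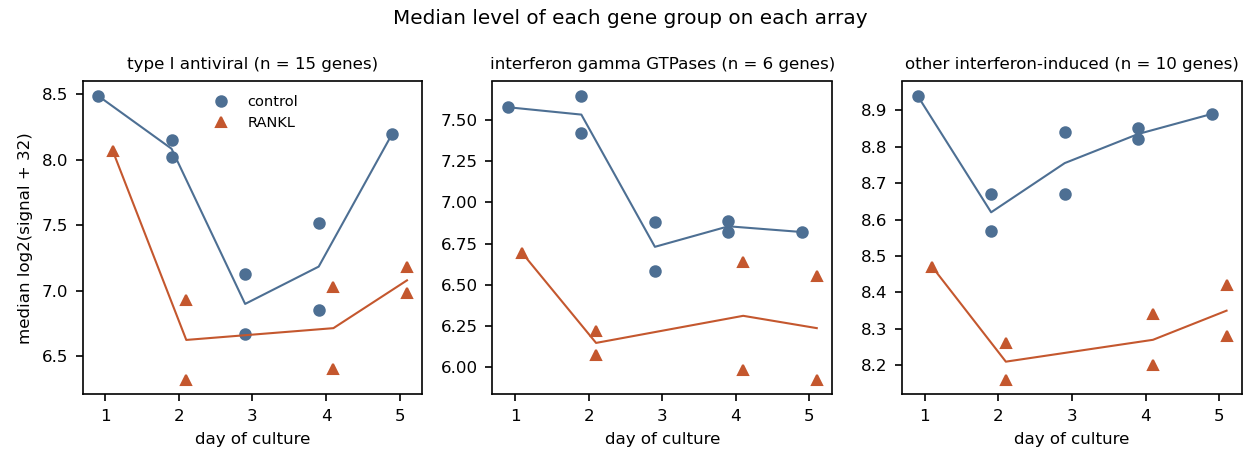
Median log2(signal + 32) over the genes of each group on each array against day of culture, with circles for control arrays, triangles for RANKL arrays and lines through the daily means; each panel has its own vertical range. The antiviral median of control cells was 8.49 at day 1, 7.13 and 6.67 at day 3 and 8.20 at day 5, while that of RANKL cells was 8.07 at day 1 and 6.32 to 7.18 afterwards.

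The plot of group levels by day shows the median level of each group on each array. The antiviral median in RANKL cells dropped between day 1 (8.07) and day 2 (6.93 and 6.32) and stayed at 6.40 and 7.03 at day 4 and 6.98 and 7.18 at day 5. In control cells it was 8.49 at day 1, 8.02 and 8.15 at day 2, 7.13 and 6.67 at day 3, 7.52 and 6.85 at day 4 and 8.20 at day 5. The GTPase median of control cells was 7.58 at day 1, 7.42 and 7.65 at day 2, 6.88 and 6.58 at day 3, 6.82 and 6.89 at day 4 and 6.82 at day 5, so it was not higher at day 5 than at day 4. In RANKL cells it was 6.69 at day 1, 6.07 and 6.22 at day 2, 6.64 and 5.98 at day 4 and 6.55 and 5.92 at day 5. At day 5 the median GTPase level was thus lower with RANKL, but the genes were split. Of the 6 differences at that day 3 were negative, down to -1.75 for Ifi47, and 3 positive, with a median of -0.08. With so few genes a median level can move with 1 gene, so it does not show that the group stayed lower. Over days 2, 4 and 5 the RANKL level minus the control level was -1.01 for antiviral genes, -0.84 for GTPases and -0.50 for the others, where replicates of 1 group varied with a pooled SD of 0.35, 0.29 and 0.09.

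Control cells, which are the reference of every difference above, also changed with time. The mean of days 3 and 4 minus that of days 1 and 2, a comparison added after the values were seen, was lower for 10 of 31 genes (6.47% of all probe sets) and higher for 1 (8.55%). The falls were in 6 antiviral genes, 3 GTPases and 1 other gene. Ifit1 fell by 1.80 ± 0.27 (adjusted p = 0.00125), Ifit3 by 1.42 (adjusted p = 0.00184), Adar by 1.27 ± 0.23 (adjusted p = 0.00366) and Ifi35 by 1.41 ± 0.28 (adjusted p = 0.00593). Isg15 (-1.46), Isg20 (-1.47), Irgm1 (-1.25), Gbp3 (-0.95), Sp100 (-0.69) and the dim Gbp2 (-0.43) fell too. The Sp100 call (adjusted p = 0.0498) was lost in 19 of 24 alternatives and that of Gbp2 in 8 of 23, where its difference ran as near to 0 as -0.02. Trim25 rose, from 738 at day 1 and 565 and 753 at day 2 to 1277 and 1121 at day 3 and 1260 and 1306 at day 4 (0.81 ± 0.15, adjusted p = 0.00349). Without control day 1 the count of 11 became 5, as it did without control day 3 replicate 2, and it was 6 without control day 2 replicate 1 and 7 without control day 2 replicate 2 or control day 4 replicate 2. The beta-actin 3' to 5' ratio was 1.17 to 1.25 on the control arrays of days 1 and 2, 1.04 to 1.16 on those of days 3 and 4 and 1.01 at day 5. With that ratio as a covariate 5 of the 11 passed.

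At day 5 the single control array was above days 3 and 4 for 24 of 31 genes and 14 of 15 antiviral genes, with medians of 0.57 for antiviral genes, 0.05 for GTPases and -0.09 for all probe sets. None of the 31 passed in this comparison, added after the values were seen (0.0805% and 0.0564% of probe sets fell and rose; limma, 10 genes at an unadjusted p under 0.05). Isg20 was at 1.57 ± 0.57, Isg15 at 1.40 ± 0.57, Adar at 1.35 ± 0.32 (adjusted p = 0.134), Sp100 at 1.17 and Ifih1 at 1.08. Socs1, a feedback inhibitor of the Jak kinases, went the other way at -1.15 ± 0.27 (adjusted p = 0.129). This array is the control of every day 5 difference, so the 2 comparisons share it.

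**Figure D4:**
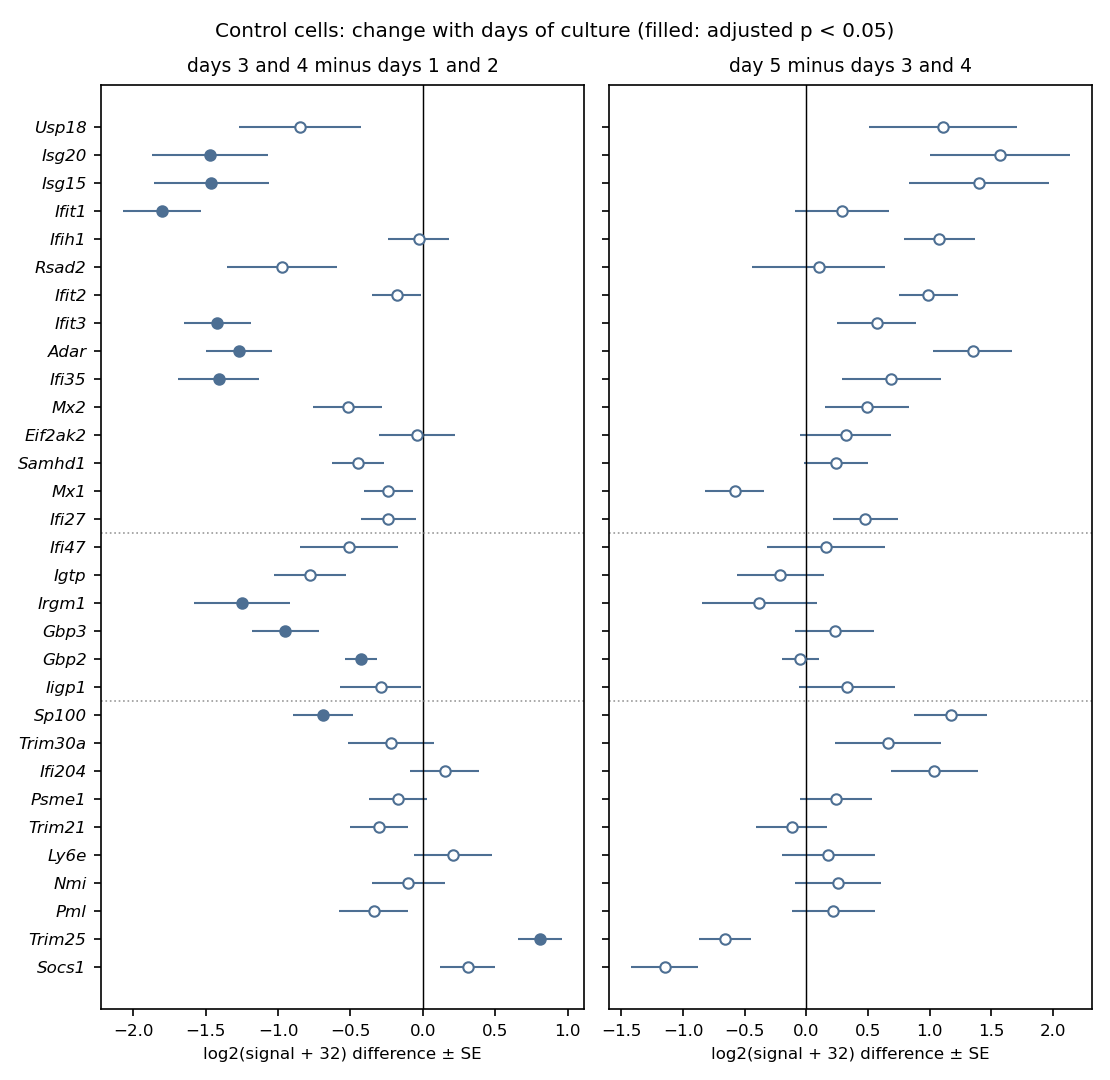
Change with days of culture in control cells for each of the 31 genes (rows, grouped as before), as the log2(signal + 32) difference ± SE; the left panel is days 3 and 4 minus days 1 and 2, the right panel day 5 minus days 3 and 4, filled points passed an adjusted p of 0.05, and the panels have separate horizontal ranges. On the left 10 genes fell and Trim25 rose; on the right 24 of 31 points lie above 0 and none is filled.

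Replicates of some groups also differed in these genes together. At control day 3, 24 of 31 genes were higher in replicate 1 and the median difference between replicates was 0.32, against 0.01 over all probe sets, with 0.58 over the antiviral genes. At control day 4, 19 of 31 were higher in replicate 1, with a median of 0.23 against -0.07. At RANKL day 4, 22 of 31 were higher in replicate 1 (0.35 against -0.05), while at control day 2 the median was 0.01 and at RANKL day 2 it was 0.01. RANKL day 5 went the other way, with 11 of 31 higher in replicate 1 and a median of -0.16 against -0.01.

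The comparison of days 4 and 5 with days 1 and 2 within each arm rests on the day 1 arrays. In RANKL cells 3 genes fell (5.82% of all probe sets) and 1 rose (8.98%): Ifit1 (-1.40 ± 0.27, adjusted p = 0.0056), Ifi35 (-1.31 ± 0.28, adjusted p = 0.00939), Ifit3 (-0.74 ± 0.23, adjusted p = 0.0486) and, upward, Trim25 (0.69 ± 0.15, adjusted p = 0.009). Trim25 read 659 at RANKL day 1, 565 and 463 at day 2, 1004 and 1152 at day 4 and 876 and 819 at day 5, and it passed in all 24 alternatives. Without RANKL day 1 none of the 3 falls passed, Ifit1 being at -0.12. In control cells 4 fell (4.87% of all probe sets) and 0 rose (5.98%): Ifit1 (-1.48), Ifit3 (-0.96), Irgm1 (-1.32) and Gbp2 (-0.49). Without control day 1 the count by limma was 0, with 9 genes at an unadjusted p under 0.05, and Gbp2 was at -0.08. It was 1 without control day 2 replicate 1 or control day 4 replicate 2, and 7 without control day 5.

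Upstream of these genes, 30 genes of the interferon pathway were measured, and over the 4 days 1 fell and 0 rose (0.539% and 0.555% of all probe sets), with a median of -0.07. Of the ligands 8 of 10 were measured and none passed. Ifnb1, the interferon beta gene, was dim on every array (9.52 to 94.1), at 72.3 ± 11.1 (SD, n = 2) at RANKL day 2 and 39.4 ± 40 (SD, n = 2) at control day 2, and its difference was 0.09 ± 0.20 (adjusted p = 0.949). Of the 7 receptors and kinases none passed, with Ifnar1 at 0.22 ± 0.13 (adjusted p = 0.621) and Ifnar2 at -0.48 ± 0.13 (adjusted p = 0.112). Of the STAT and IRF factors 7 of 9 were measured.

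Irf8, a factor that macrophages need, was the 1 that fell over the 4 days (-1.25 ± 0.23, adjusted p = 0.0255, missed in 10 of 24 alternatives). By day it was at 0.53 ± 0.56 at day 1 and -0.77 ± 0.39 at day 4, neither past the threshold. It fell at day 2 (-2.29 ± 0.39, limma adjusted p = 0.0264) and at day 5 (-2.46 ± 0.48), where control has 1 array. Irf7, the factor that amplifies type I interferon output and is itself induced by it, did not pass (-1.55 ± 0.43, adjusted p = 0.138). Its signal was 1421 at control day 1 and 1270 at RANKL day 1, then 991 ± 76.6 (SD, n = 2) and 236 ± 10.2 (SD, n = 2) at day 2. Irf9 was at -0.48 ± 0.16 (adjusted p = 0.22). Of the 4 sensing genes measured (of 11 listed), Ikbke, a kinase that activates Irf3 and Irf7, was at -1.09 ± 0.24 (adjusted p = 0.0606), and none of the 4 brakes passed (Socs3 -0.54). With time in control cells, Ikbke (2.44), Socs3 (1.67), Irf8 (1.56), Jak1 (0.83) and Ptpn6 (0.71) rose (5.98% of all probe sets) and Irf5 (-0.75) fell (4.87%). In RANKL cells Ikbke (1.59), Jak1 (0.68), Ifnar1 (0.67), Ifngr1 (0.65), Tbk1 (0.63) and Ptpn6 (0.54) rose (8.98% of all probe sets) and Myd88 (-0.43) fell (5.82%). Of these RANKL-cell calls, that of Myd88 was lost in 16 of 24 alternatives, Ifngr1 in 15, Ifnar1 in 7 and Tbk1 in 6. Both are days 4 and 5 minus days 1 and 2, the same comparisons as those in which 3 or 4 of the 31 interferon-induced genes fell.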

How the data were processed

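The authors' deposited values are MAS5 signals, a linear intensity for each probe set, per the submitters' processing notes (version not given in the sources used here). The 2% trimmed mean is 500 on each of the 15 arrays, so no further normalization was applied. Of 12488 probe sets, 66 manufacturer controls were left out. GEO's platform annotation pairs 10833 probe sets with 1 gene, 396 with several and 1193 with none.

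Deposited signals were taken as log2(signal + 32) with no filter, and limma 3.58.1 in R 4.3.3 (lmFit, eBayes with an intensity trend) fitted 9 group means, with 6 residual and 5.39 prior degrees of freedom. Groups with a single array (3) take their spread from the rest. Tests were two-sided, Benjamini-Hochberg adjusted within each of 8 comparisons over 12422 probe sets, and 3 comparisons were added later. The fit was tested on simulated data. The number of arrays limits the precision.

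Signals on single arrays are given for genes past the threshold in any of the 8 comparisons and the 3 largest changes of each group. The genes, lists and comparisons were chosen with earlier results of these data known. In all, 24 alternatives were run. A total of 9 genes have 10 other probe sets, of which 2 had the opposite sign (of Ifi204 and Samhd1) and 8 were under 150 on every array. Over the 4 days 0 of these 10 passed the threshold.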

Additional observations from a re-analysis of the deposited data

How the results depend on the processing

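Over the alternatives no called fall or rise reversed. The count of 8 genes that fell over the 4 days was 3 with beta-actin's 3' to 5' ratio added to the fit (the covariate), and ran from 0 to 11 when 1 array was left out (0 without control day 5, 5 without either array of control day 2 or of RANKL day 2 or without control day 4 replicate 1, 11 without control day 1). Of the 8 calls, those missed most often were Isg15 (12 of 24), Isg20 (9 of 23) and Usp18 (9 of 24). The day 2 count of 4 was 0 with the covariate (limma, 12 at an unadjusted p under 0.05) and ran from 0 to 5; the day 5 count of 3 ran from 1 to 5. Culture time in RANKL cells (4) gave 2 without both day 1 arrays and ran from 2 to 5. Culture time in control cells (4) gave 2 with a pseudocount of 1, 0 without both day 1 arrays, 0 with the covariate (limma, 9 and 7 at an unadjusted p under 0.05), and ran from 0 to 7. Control days 3 and 4 against days 1 and 2 (11) gave 7 on the upper 50% of probe sets, which tested 17 of the genes, 5 without both day 1 arrays, 5 with the covariate, and ran from 5 to 11. Comparisons with a count of 0 stayed at 0. Over all probe sets, the 67 falls and 69 rises over the 4 days became 2 and 9 without control day 5. They became 122 and 98 on the upper 50%, 246 and 186 without both day 1 arrays, and 25 and 39 with the covariate. The cause of these shifts was not tested.

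The level difference over days 2, 4 and 5 was -1.30 and -0.51 for the GTPases with pseudocounts of 1 and 100, and -0.20 for the other genes with the mean of a gene's probe sets. Uncalled 4-day differences near 0 changed sign: with 1 array left out, Gbp2 ran from -0.23 to 0.02, Mx1 from -0.20 to 0.10, Eif2ak2 from -0.13 to 0.03, Iigp1 from -0.21 to 0.02 and Samhd1 from -0.09 to 0.02. Gbp2 was also at 0.02 without both day 1 arrays, Mx1 at 0.00 with a pseudocount of 100, and Samhd1 at 0.00 with quantile normalization and 0.03 with the mean of its probe sets.

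Over all probe sets, same-numbered arrays of different groups correlated at only -0.169 to 0.119 in their deviations from the group means. That check does not cover the 31 genes by themselves. Of these, 24, 19 and 22 were higher in replicate 1 at control day 3, control day 4 and RANKL day 4. The counts were 17, 16 and 11 at control day 2, RANKL day 2 and RANKL day 5. Whether replicate numbers share an effect in these genes was not tested. With the replicate block the counts were 10 over the 4 days, 4 at day 2, 0 at day 4, 2 at day 5, 5 and 5 for culture time in RANKL and control cells, and 10 for control days 3 and 4.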
